A study of Mus musculus with 15 samples.

Results

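The promoters of 10 genes encoding ATP-dependent chromatin remodellers of the CHD, ISWI and INO80 families were examined: the CHD genes Chd1, Chd2, Chd4, Chd7 and Chd8, the ISWI ATPase genes Smarca5 and Smarca1, Bptf, which encodes the large subunit of the ISWI complex NURF, and the INO80-family ATPase genes Ino80 and Ep400. Members were found by matching the RefSeq identifier of each annotated promoter to a gene symbol, or for Chd7 by a GENCODE transcript start at the annotated position, and each gene had 1 promoter, so that the set held 10 of the 25881 promoters measured. The study asked how nucleosomes are arranged at promoters before and during activation by inflammatory stimuli, and whether the BAF complex is needed for this. BAF belongs to the SWI/SNF family of remodellers. The genes described here encode enzymes of the other families or, for Bptf, a subunit of a complex of one of them.

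Remodellers use ATP to slide, space, exchange or evict nucleosomes. CHD1 and the ISWI enzymes space nucleosomes into regular arrays, INO80 positions the nucleosomes flanking the transcription start site (TSS), EP400 exchanges histones at promoters, and CHD4 is the ATPase of the repressive NuRD complex. At an active promoter their combined action leaves a nucleosome-depleted region (NDR) just upstream of the TSS and a well-placed +1 nucleosome just downstream of it.

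All 15 libraries were ChIP-MNase libraries of mouse cells. Large pieces of fixed chromatin were enriched by ChIP, and micrococcal nuclease then cut them down to mostly mononucleosomal fragments. An antibody against H3K4me1, a histone mark surrounding promoters, was used for non-stimulated DCs and DCs stimulated for 1 h with LPS at 100 ng/ml, and for non-stimulated 3T3 fibroblasts and 3T3 fibroblasts stimulated for 1 h with TNF-α at 5 ng/ml. The authors pooled 2 replicates into each of these 4 sets, which therefore carry no replicate error. Control fibroblasts and fibroblasts with stable shRNA knock-down of Brg1 and Brm, the catalytic subunits of BAF (BAF knockdown), each non-stimulated (ns) or stimulated in the same way with TNF-α, gave 2 H3K4me1 libraries per group, 8 single libraries in all. Antibodies against RNA polymerase II phosphorylated at serine 7 (S7P, 2 libraries) or serine 5 (S5P, 1 library) were used on TNF-α-stimulated fibroblasts without a knock-down label. Whether the S5P library pools replicates could not be settled, and it is treated as 1 library without replicate error. DCs were differentiated in vitro from a progenitor line and 3T3 is an immortalised line, and the knock-down cells were transduced with a retrovirus and sorted for GFP. The study describes the replicates as biological replicates, and their labels do not name separate cultures.

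Occupancy is a fragment density relative to the surrounding 1 kb and holds no read counts. The share of the 200 bins of a promoter that held any fragment therefore stood in for depth. Over the 13559 high-coverage promoters the pooled sets reached 82.0 to 90.2%, the single H3K4me1 libraries 63.5 to 78.1% and the pol-II libraries 69.2 to 81.2%. The median patterning level (defined below) over these promoters split the 8 single libraries into 4 at 2.36 to 2.51 (both first replicates of the control groups and both non-stimulated knockdown libraries) and 4 at 3.32 to 3.39, so that both stimulated knockdown libraries lay in the upper set and both non-stimulated ones in the lower. The part of this split in the comparisons was not tested. Of 6 DC marker genes all were annotated as active in DCs and 1, Cd74, in fibroblasts; of 6 fibroblast marker genes all were active in fibroblasts and 3 in DCs.

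Only Ep400 (coverage score 220.0) and Chd2 (108.5) exceeded the study's threshold of 100 for high coverage. Smarca5 (97.5) lay just below it, followed by Chd8 (75.5), Bptf (62.5), Chd4 (62.0), Ino80 (49.5), Chd1 (48.0), Smarca1 (32.5) and Chd7 (27.5). Tests restricted to high-coverage promoters thus covered 2 of the 10 members, and the other 8 were tested in the same model fitted to all 25881 promoters.

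All members except Chd7 were annotated as active in fibroblasts, and all except Smarca1 as active in DCs, where a promoter counts as active if its annotated expression exceeds 0.02 of the average over promoters. Chd4 had the highest expression of the 10 in both cell-types, at 2.07 times the mean of all promoters in DCs and 0.680 times the mean in fibroblasts. Smarca1, which encodes the ISWI ATPase SNF2L, was listed at 0 in DCs and at 0.102 times the mean in fibroblasts. Chd7, a CHD enzyme known for its role in neural crest development, was at 0.0006 times the mean in fibroblasts and 0.542 times the mean in DCs.

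The sequence of the NDR window differed widely between members. By the criteria of a GC content above 50% and a CpG observed to expected ratio above 0.6 within 200 bp of the TSS, 7 of the 10 promoters lay in CpG islands, against 48.3% of all promoters with sequence. Chd8 (GC content 47.1%, CpG ratio 0.135), Chd2 (51.4%, 0.352) and Smarca1 (63.6%, 0.553) did not. Below are the 150 bp upstream of the annotated TSS, which is the window in which the NDR was measured, for the 2 high-coverage members. They are read 5′ to 3′ on the coding strand from mm9; capitals mark GC boxes (GGGCGG or its complement CCGCCC) and, in Chd2, a run of T.

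Chd2, chr7:80686633-80686782, minus strand: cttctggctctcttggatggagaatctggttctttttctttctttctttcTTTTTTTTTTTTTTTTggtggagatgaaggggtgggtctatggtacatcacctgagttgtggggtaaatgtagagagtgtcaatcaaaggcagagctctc
Ep400, chr5:111199737-111199886, minus strand: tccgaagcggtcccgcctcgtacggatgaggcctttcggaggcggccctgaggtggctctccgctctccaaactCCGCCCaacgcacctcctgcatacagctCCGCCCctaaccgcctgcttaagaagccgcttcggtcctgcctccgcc

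Ep400 carried 2 GC boxes, at −76 and −48 bp, and 15 CpG dinucleotides. The Chd2 window contained no CpG and an uninterrupted run of 16 T, a length reached by an A or T run in 0.707% of all promoter windows. A GC box on either strand was present in 7 members (Bptf, Chd1, Chd4, Chd7, Ep400, Ino80 and Smarca1), against 37.3% of all promoters. A CCAAT box (CCAAT or ATTGG) was present only in Smarca1, against 26.1% of all promoters, and TATAAA (or TTTATA) in no member, against 7.43%. The annotated TSSs of Chd1, Chd2 and Ep400 are the most upstream starts of these genes in GENCODE within 1 kb, the distance searched, whereas GENCODE has a start of the same gene further upstream for Smarca5 (at −38 bp), Ino80 (−58 bp), Chd4 (−182 bp), Bptf (−205 bp), Chd8 (−219 bp), Smarca1 (−422 bp) and Chd7 (−451 bp), so that distances from the TSS at those promoters refer to the RefSeq start. The only start of another gene on the opposite strand within 1 kb of a member was that of Gm15559, at −232 bp from the Ep400 TSS.

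To describe how closely each promoter resembled an active one, a patterning level was calculated: the sum over bins of the mean profile of active promoters (the template) times the deviation of occupancy from its promoter mean. Larger values mean a profile more like that of active promoters, and 0 means no likeness. Over the 8 single fibroblast libraries, Chd4 had the highest mean, 10.2 ± 5.09 (SD, n = 8), at the 90.8th percentile of high-coverage promoters. Chd2 followed at 9.10 ± 9.75, the 87.1st percentile. Bptf (4.43 ± 5.11), Chd8 (4.19 ± 5.36), Ino80 (1.46 ± 5.12), Smarca1 (1.20 ± 7.89) and Chd1 (1.11 ± 9.88) came next, and Chd7 (−1.18 ± 8.29), Smarca5 (−1.75 ± 6.16) and Ep400 (−2.92 ± 10.4) were lowest. Neighbours in this order differed by less than their SDs, and the median SD over high-coverage promoters was 5.96. The percentiles refer to high-coverage promoters, whereas 8 of the 10 members were below the coverage threshold. The median of such means was 2.62 over high-coverage and 0.94 over low-coverage promoters.

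**Figure D1:**
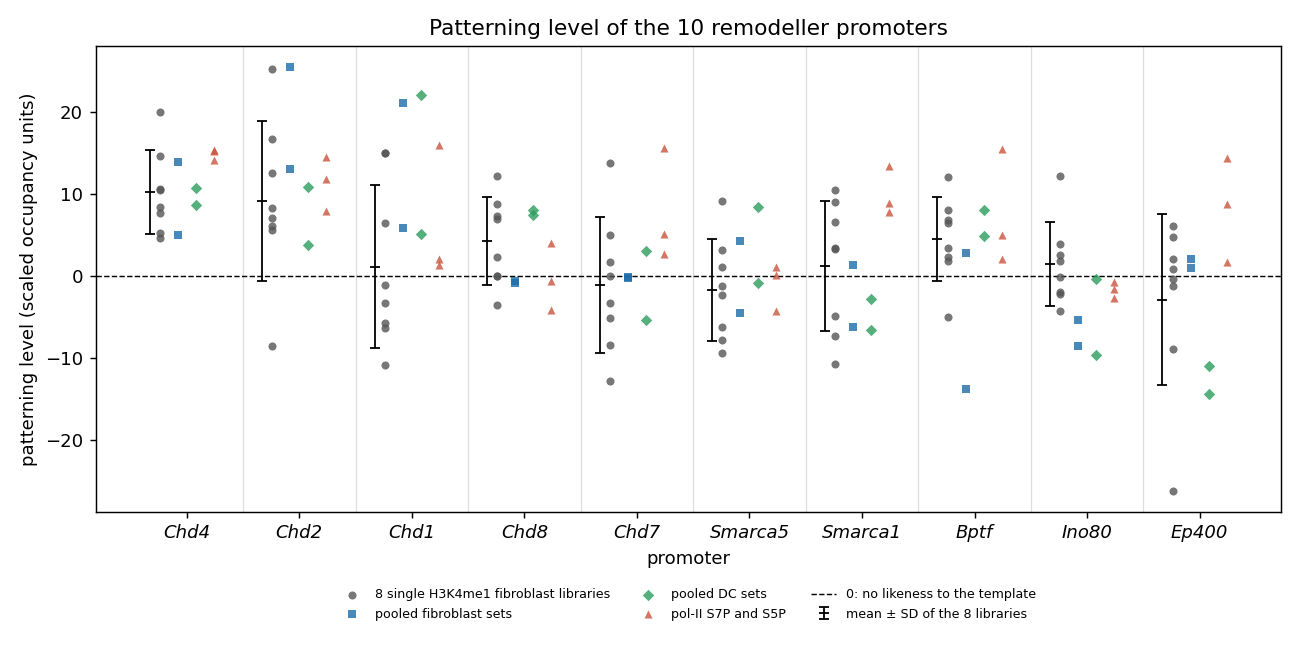
Patterning level (y axis, in units of scaled occupancy) of each member's promoter (x axis); grey circles are the 8 single H3K4me1 fibroblast libraries with their mean ± SD, blue squares the 2 pooled fibroblast sets, green diamonds the 2 pooled DC sets and red triangles the 3 pol-II libraries. All 15 values of Chd4 lie above 0, between 4.60 and 19.9, whereas every other member crosses 0.

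Chd4 was the only member with a patterning level above 0 in all 15 libraries, a property shared by 7.07% of all promoters. Its levels were 4.60 and 5.17 in control ns, 19.9 and 14.6 in control TNF, 8.35 and 10.6 in knockdown ns, and 7.69 and 10.5 in knockdown TNF. The pooled sets gave 13.8 and 4.99 for non-stimulated and stimulated fibroblasts and 8.67 and 10.7 for non-stimulated and LPS-stimulated DCs. The pol-II libraries lay close together at 15.3 and 14.05 for S7P and 15.2 for S5P.

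The highest downstream bin and the emptiest 150 bp were located in each set, a search that returns a position at any promoter. At Chd4 the highest downstream bin held 2.71 to 4.12 times the library mean. The highest downstream bin, at the position of a +1 nucleosome, was centred 125 bp from the TSS in the mean of the single libraries, 135 bp in the pooled fibroblast sets, 95 bp in DCs, 115 bp in S7P and 155 bp in S5P. The emptiest 150 bp were centred at −65 bp in the single libraries, −55 bp in DCs and S7P and −35 bp in S5P, but at −175 bp in the pooled fibroblast sets. There they still held 0.45 times the library mean. In the stimulated pooled fibroblast set the NDR window was not depleted, at a log2 NDR ratio of 0.19. The 2 S7P profiles of Chd4 correlated at r = 0.667 across bins, the highest value among members, with a median of 0.237 over high-coverage promoters. Its H3K4me1 profiles correlated less than those of high-coverage promoters. The median r was 0.115 over the 28 pairs of single libraries, against 0.171. Between the pooled sets r was 0.084 in fibroblasts, against 0.315, and 0.097 in DCs, against 0.369. Bins of one library overlap through the authors' smoothing, and these correlations are descriptions.

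Chd2, a CHD enzyme linked to histone H3.3 deposition, had its highest downstream bin at 145 bp in the single libraries, the pooled fibroblast sets, S7P and S5P, and at 135 bp in DCs. Its patterning levels were 8.24 and 5.63 in control ns, −8.53 and 6.10 in control TNF, 12.5 and 25.2 in knockdown ns and 16.6 and 7.02 in knockdown TNF. A single library, the first control TNF replicate, was below 0. The position of this peak thus varied by 10 bp between sets while the level varied between −8.53 and 25.4.

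**Figure D2:**
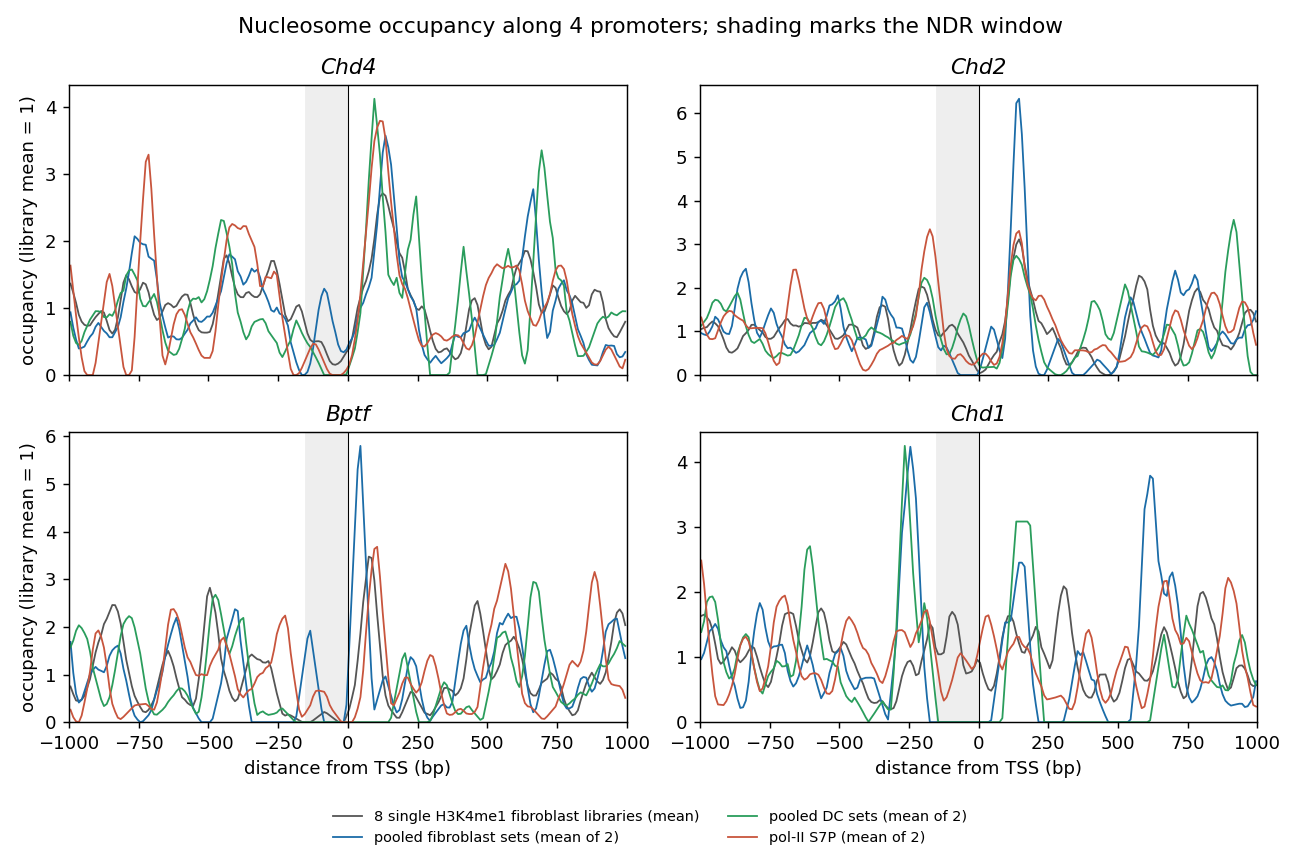
Nucleosome occupancy (y axis, library mean set to 1) against distance from the TSS (x axis, bp) at 4 promoters, as the mean of the 8 single H3K4me1 fibroblast libraries (grey), 2 pooled fibroblast sets (blue), 2 pooled DC sets (green) and 2 S7P libraries (red); the shaded band is the NDR window. Chd4 and Chd2 show a downstream peak at 95 to 145 bp in each set, Bptf is nearly empty in the shaded window except in the pooled fibroblast and S7P curves, and Chd1 is at 0 there in both pooled curves but not in the single libraries or S7P.

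Depletion upstream of the TSS was measured as the log2 NDR ratio, the log2 of mean occupancy from −150 to 0 bp over that from −1000 to −500 bp after adding 0.1 to each. Values below 0 mean depletion, and values near −3.5 mean that no fragment fell in the window while the flank was filled as usual. Bptf had the lowest mean over the single libraries, −3.11 ± 1.04 (SD, n = 8), at the 1.49th percentile of high-coverage promoters. Its values were −0.62 and −3.46 in control ns, −3.64 and −3.82 in control TNF, −3.58 and −3.54 in knockdown ns and −3.31 and −2.93 in knockdown TNF. In 6 of these 8 libraries the window held no fragment, as in at least 6 libraries at 7.33% of all promoters. Both DC sets were also at 0 occupancy there, whereas the pooled fibroblast sets gave log2 NDR ratios of 0.06 and −2.61 and the pol-II libraries −3.22, −0.41 and 0.02. Bptf is below the coverage threshold, with a mean of 56.6% of bins filled in the single libraries. GC content in its NDR window is 85.3%. The part of either in these values was not tested.

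Chd4 (−1.67 ± 1.30), Ep400 (−1.50 ± 2.29), Smarca1 (−1.32 ± 1.39) and Ino80 (−0.98 ± 0.85) had mean log2 NDR ratios below the median of −0.81 over high-coverage promoters. Chd2 (−0.66 ± 1.0), Smarca5 (−0.66 ± 1.78), Chd8 (−0.54 ± 0.62) and Chd1 (−0.26 ± 0.94) were above it. The median was −0.65 over all promoters and −0.50 over low-coverage promoters, to which Smarca5, Chd8 and Chd1 belong. Smarca5 and Chd8 were below that low-coverage median and Chd1 was above it. Chd7 had the highest mean, 0.65 ± 1.36, at the 98.7th percentile, meaning that its NDR window was on average more occupied than its flank. Its values ranged from −2.16 to 2.05 with a median of 1.09, and 6 of 8 were above 0. In the 2 libraries below 0 (−0.07 in the second control ns and −2.16 in the first knockdown ns replicate) no fragment fell in the window, and its flank was sparsely filled as well.

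The Chd1 promoter gave opposite pictures in the pooled and the single H3K4me1 libraries. Chd1 recognises H3K4me3 and evens out nucleosome spacing behind elongating polymerase. Its NDR window was at 0 occupancy in all 4 pooled sets, in both cell-types and both states, as were the windows of 3.03% of all promoters. In the 8 single fibroblast libraries the same window was occupied throughout, from 0.349 to 2.08 times the library mean with a median of 1.07, and no log2 NDR ratio was below −1.63. Across bins, however, the single-library profiles of Chd1 correlated at a median r of −0.025 over 28 pairs, against 0.171 over high-coverage promoters. Between pooled sets r was 0.484 for the fibroblast sets, 0.531 for the non-stimulated sets of both cell-types and 0.074 for the DC sets. The combination of 0 in all pooled sets and a value above 0 in all single libraries was found at 1 promoter of 25881 (0.00386%), which was Chd1. This rule was written after its values had been seen. Between 54.5 and 70.5% of the Chd1 bins held a fragment in the single libraries and between 47.5 and 70.0% in the pooled sets, so that the pooled sets were not fuller here, and the part of low coverage in the difference was not tested.

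**Figure D3:**
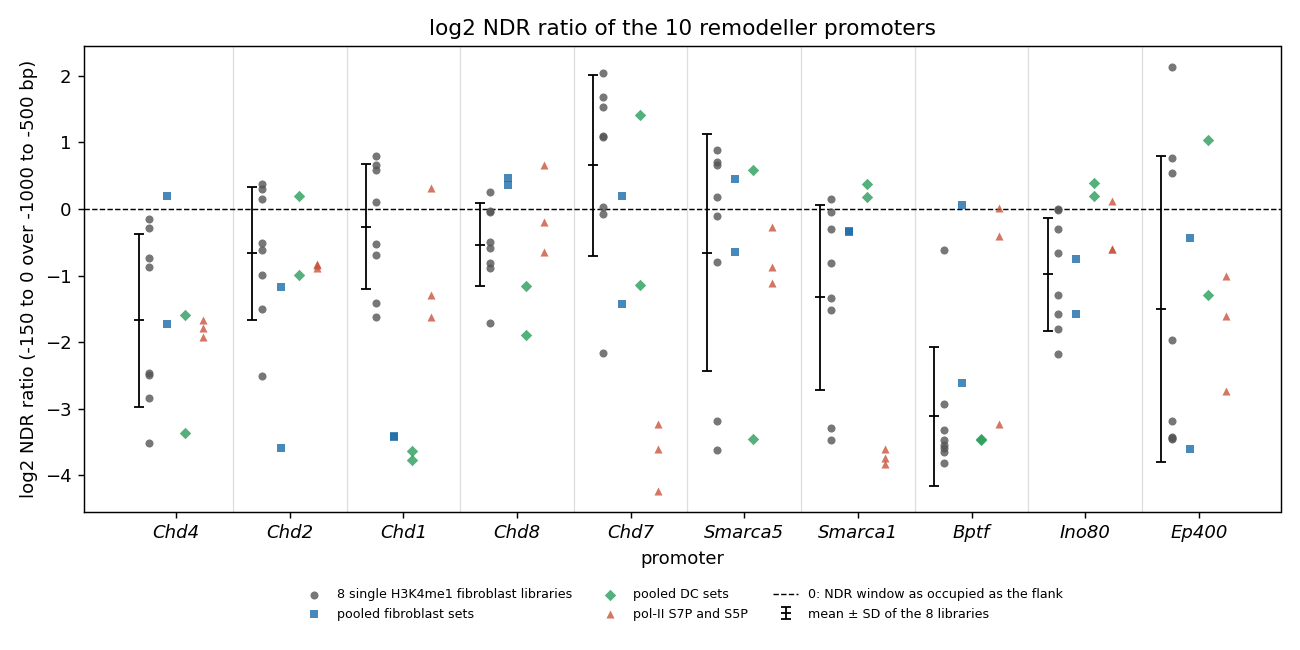
The log2 NDR ratio (y axis) of each member's promoter (x axis), with symbols as for the patterning levels and bars giving the mean ± SD of the 8 single libraries. Bptf sits near −3.5 in most libraries, Chd7 lies mostly above 0 in H3K4me1 but between −3.22 and −4.23 in pol-II, and the 4 pooled Chd1 values lie between −3.41 and −3.76, below all single libraries.

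Ep400 had the highest coverage score of the members. By filled bins it was not the fullest, at a mean of 58.8% over the single libraries against 76.6% for Chd2. Its log2 NDR ratio ranged from −3.45 to 2.13 over these libraries, and 4 of the 8 windows held no fragment. Smarca5 ranged from −3.61 to 0.89, Ino80 from −2.17 to 0.01 and Smarca1 from −3.46 to 0.15. Patterning of Ep400 was −14.4 and −11.0 in non-stimulated and LPS-stimulated DCs and 0.929 and 2.01 in the corresponding fibroblast sets. Ino80 was below 0 in all 4 pooled sets, at −0.420 and −9.65 in DCs and −5.36 and −8.55 in fibroblasts.

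For the genes active in 1 cell-type only, the pooled sets allowed a comparison without replicates. Smarca1 had log2 NDR ratios of 0.37 and 0.17 in DCs, where it is listed at 0 expression, and −0.35 and −0.33 in fibroblasts, where it is active. Chd7 had 1.42 and −1.15 in DCs, where it is active, and 0.19 and −1.42 in fibroblasts. The median patterning level over the 10 promoters was 6.07 in DCs before LPS and 3.34 after it. High-coverage promoters had 3.44 and 3.65 there, and all promoters 2.72 and 2.99. In fibroblasts the median over the 10 promoters was 2.01 before TNF-α and −0.444 after it. High-coverage promoters had 3.51 and 3.77 there, and all promoters 2.70 and 2.87. The SD of the median over the 10 promoters across the 8 single libraries was 2.81, which is larger than the difference between the 2 fibroblast sets.

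The first comparison asked whether 1 h of TNF-α changed these promoters, with the 4 stimulated and 4 non-stimulated single libraries fitted together and knockdown as a further term (limma, Benjamini-Hochberg adjustment over all promoters tested). No member passed an adjusted p of 0.05. Among the 13559 high-coverage promoters 0% passed for either measure, although 774 (patterning level) and 771 (log2 NDR ratio) had an unadjusted p below 0.05. Without the coverage filter 0% passed for the patterning level and 0.0309% (8 promoters) for the log2 NDR ratio, and 6.1% and 5.63% had an unadjusted p below 0.05. The median difference of the members was −2.26 in patterning level, with 4 higher and 6 lower with TNF-α, against 0.155 over all promoters. In log2 NDR ratio it was 0.22, with 6 higher and 4 lower, against −0.05.

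The Chd4 NDR window gave the lowest p among the members in this comparison. Its log2 NDR ratios were −0.74 and −0.28 in control ns and −0.88 and −0.15 in knockdown ns, and −2.49 and −2.84 in control TNF and −3.52 and −2.46 in knockdown TNF. All 4 stimulated libraries were therefore lower than all 4 non-stimulated ones. The difference was −2.32 (SE 0.33) with an unadjusted p of 0.000428 and an adjusted p of 0.252 in limma, and without any 1 library it was between −2.50 and −2.07. The pooled fibroblast sets had the opposite order, −1.72 before and 0.19 after stimulation. Chd4 bins holding a fragment were 78.5% ± 13.9 (SD, n = 4) in the non-stimulated and 67.3% ± 10.8 in the stimulated single libraries, and the part of this in the result was not tested.

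Chd8, a CHD enzyme that antagonises β-catenin, showed the same order. Its log2 NDR ratios were −0.03 and 0.26 in control ns and −0.50 and −0.04 in knockdown ns, and −0.88 and −1.71 in control TNF and −0.81 and −0.59 in knockdown TNF. The difference of −0.92 (SE 0.33) had an unadjusted p of 0.0309 and an adjusted p of 0.846 in limma. The pooled fibroblast sets gave 0.35 and 0.47, close to each other. Stimulated libraries lay below all non-stimulated ones for these 2 of the 10 members, and for 1.72% of all promoters; they lay above for none, and for 0.974% of all promoters.

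**Figure D4:**
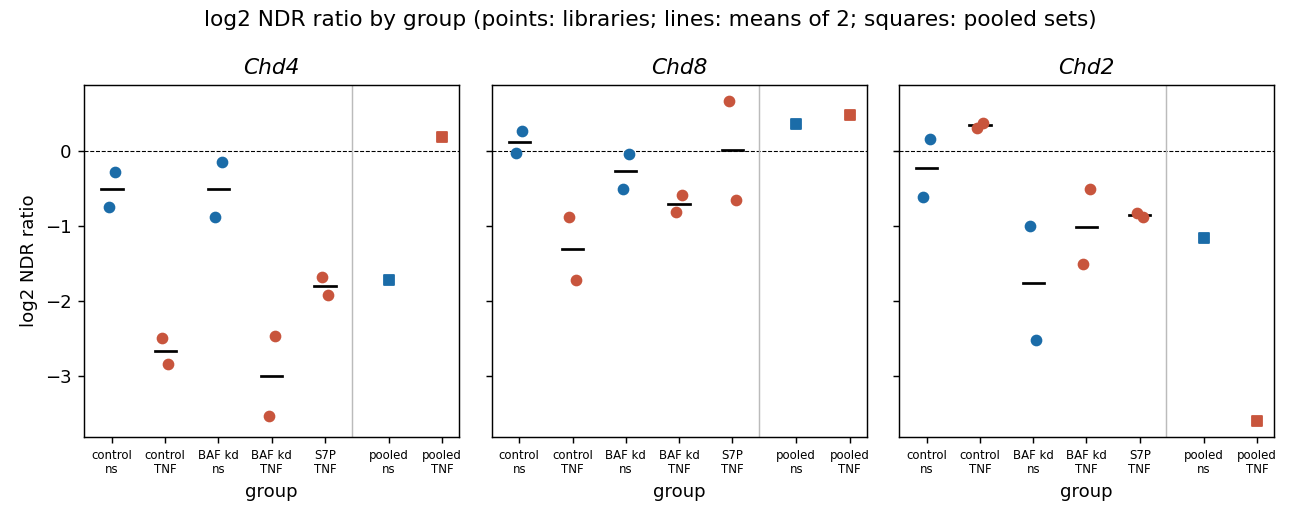
The log2 NDR ratio (y axis) of Chd4, Chd8 and Chd2 by group (x axis); points are single libraries, blue for non-stimulated and red for TNF-α, lines the mean of 2, and squares the pooled fibroblast sets. Chd4 averages −0.51 in the non-stimulated and −2.83 in the stimulated single libraries, and its pooled squares are in the opposite order.

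The second comparison addressed whether the promoters of other remodellers were altered when BAF was reduced. Occupancy gives no check of the knock-down itself, since the shRNA acts on mRNA. The promoters of its targets, Smarca4 (encoding BRG1) and Smarca2 (encoding BRM, 2 promoters), ranged in patterning from −8.58 to 19.6 and from −25.8 to 15.7 over the single libraries, with adjusted p of at least 0.829 for knockdown in limma without a coverage filter. No member passed the adjusted threshold, and 0% of promoters did for either measure with or without the filter (793 and 699 of 13559 at an unadjusted p below 0.05). Of the members, 5 were higher and 5 lower in patterning level, and 3 were higher and 7 lower in log2 NDR ratio. The names of the first knockdown replicates carry the tag 04U and those of the other single libraries 12U, so that the tag differed within the knockdown groups. With the second replicates alone, which share 1 tag, 0 high-coverage promoters passed the adjusted threshold for either measure (510 and 707 at an unadjusted p below 0.05 for patterning level and log2 NDR ratio).

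Chd2 was the member with an unadjusted p below 0.05 for both measures, as were 5.85% (patterning level) and 5.16% (log2 NDR ratio) of high-coverage promoters, and 6% and 5.32% without the filter. Its log2 NDR ratios were −0.62, 0.16, 0.31 and 0.37 in the control libraries and −1.0, −2.51, −1.51 and −0.51 in the knockdown libraries. The groups overlapped by 1 library. The difference was −1.44 (SE 0.46), with an unadjusted p of 0.0186 and an adjusted p of 0.923. Its patterning level was 2.86 ± 7.67 (SD, n = 4) in control and 15.3 ± 7.67 in knockdown libraries, a difference of 12.5 (SE 4.46) with an adjusted p of 0.818. The pooled fibroblast sets carry no knock-down label. Their log2 NDR ratios at Chd2 were −1.16 (non-stimulated) and −3.59 (stimulated), and their patterning levels 13.0 and 25.4. Neither difference between control and knockdown libraries passed the adjusted threshold. With the second replicates alone they were −1.78 (adjusted p 0.862 in limma) and 10.3 (adjusted p 0.892). For no member did the knockdown libraries lie entirely above or below the control libraries, while 1.38% and 1.43% of all promoters did so in patterning level (above and below) and 1.38% and 1.25% in log2 NDR ratio.

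Ep400 was the other member tested among high-coverage promoters. Its patterning level was −0.445 and −26.2 in control ns, 1.98 and −1.21 in control TNF, 6.0 and 0.797 in knockdown ns and −8.99 and 4.70 in knockdown TNF. The second control ns replicate was far below the others. None of its 8 tests gave an unadjusted p below 0.181.

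Whether the response to TNF-α differed between control and knockdown was tested with an interaction term. No member and 0% of promoters passed for either measure (766 and 818 of 13559 at an unadjusted p below 0.05, or 6.33% and 6.39% without the filter). In patterning level Chd4 had the only unadjusted p below 0.05 among the members. It was 4.60 and 5.17 before and 19.9 and 14.6 after stimulation in control, and 8.35 and 10.6 before and 7.69 and 10.5 after stimulation in knockdown, an interaction of −12.8 (SE 3.61, adjusted p 0.772). In the pooled fibroblast sets the Chd4 level had the opposite order to control, 13.8 before and 4.99 after stimulation. For Bptf the log2 NDR ratio was lower after stimulation in both control libraries and higher in both knockdown libraries than in their non-stimulated counterparts, as at 5.51% of all promoters with opposite moves in either order, but the interaction of 2.13 (SE 1.33) had an adjusted p of 0.886.

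The third comparison set chromatin bound by S7P polymerase against H3K4me1 chromatin of stimulated control fibroblasts, in a model of 10 libraries in 5 groups. The pol-II libraries had paired-end and the H3K4me1 libraries single-end reads. The S7P libraries were from fibroblasts without a control or knock-down label, and the H3K4me1 libraries from the control cells of the knock-down experiment. Antibody, type of sequencing and culture therefore cannot be told apart. No member passed the adjusted threshold. Among high-coverage promoters 0% passed (1062 and 1223 at an unadjusted p below 0.05 for patterning level and log2 NDR ratio), and without the filter 0% and 0.189% (49 promoters) did, with 7.91% and 9.05% at an unadjusted p below 0.05.

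The share of bins holding fragments was compared next. Both S7P libraries were fuller than all 8 single H3K4me1 libraries at 6 of the 10 members (Chd1, Chd2, Chd8, Smarca5, Ino80 and Ep400), and at 20.1% of all promoters. They were less filled than all 8 at no member, and at 11.3% of all promoters. Chd1 was filled to 93.0 and 94.0% in S7P and 99.0% in S5P, and to at most 70.5% in a single library. Ino80 was filled to 94.0, 96.0 and 93.0%, and to at most 83.5% in a single library. Chd2 was filled to 98.5, 98.0 and 100.0%, and its highest single-library value was 90.0%. The other 4 members did not separate in this way. Chd4 had 81.5 and 90.5% in S7P against a highest single-library value of 97.5%, and Bptf 64.0 and 90.0% against 77.5%. Chd7, which is annotated as not active in these fibroblasts, was at 16.0 and 33.5% in S7P and 20.5% in S5P against 22.0 to 51.5% in the single H3K4me1 libraries. Its first S7P and its S5P value were thus below that range and its second S7P value was within it. Smarca1 was within its H3K4me1 range of 41.0 to 73.5%, at 51.0, 70.5 and 65.0%.

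**Figure D5:**
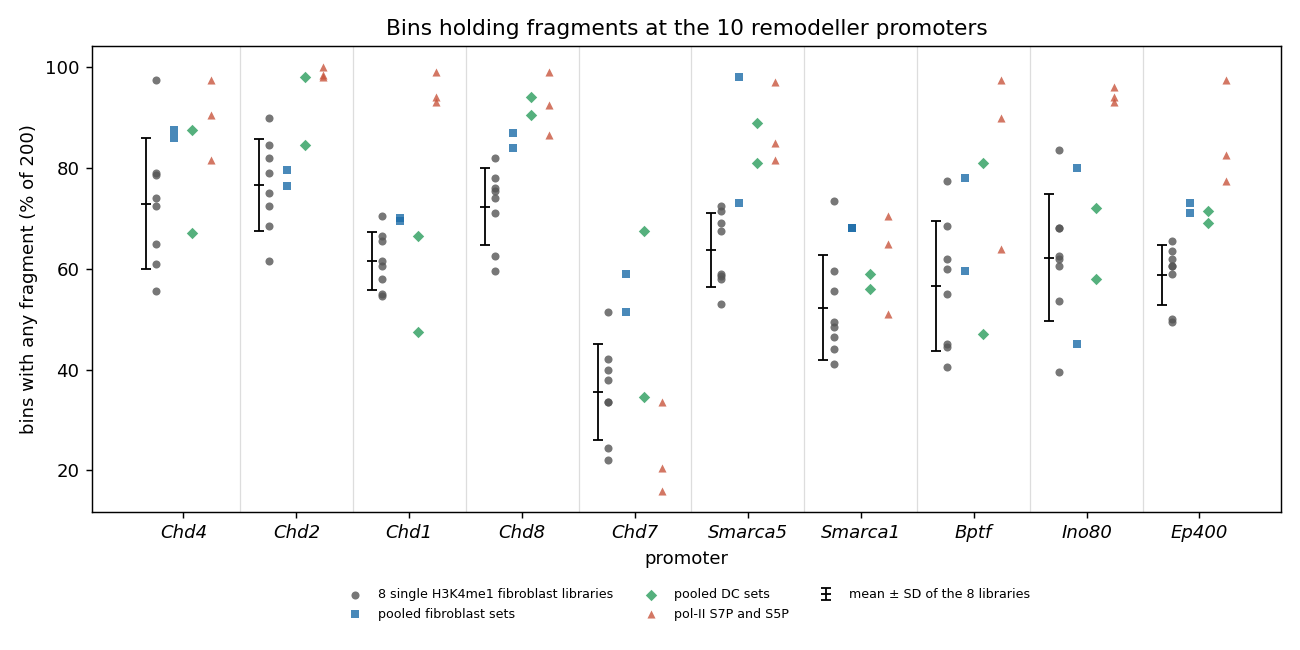
Share of the 200 bins of each promoter that held any fragment (y axis, %), by member (x axis), with symbols as for the patterning levels and bars giving the mean ± SD of the 8 single libraries. The pol-II triangles are above the H3K4me1 circles at Chd1, Ino80, Ep400, Chd2, Smarca5 and Chd8, and at the bottom of the plot, from 16.0 to 33.5%, at Chd7.

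At the sparsely filled Chd7 promoter no S7P or S5P fragment fell in the NDR window, and its log2 NDR ratios of −3.22, −3.60 and −4.23 were below all 8 H3K4me1 values. Against the control TNF libraries (0.02 and 1.68) the S7P difference was −4.26 (SE 1.40, adjusted p 0.447). Smarca1 likewise had no S7P fragment in the window, with −3.83 and −3.60. These 2 members had S7P ratios below all single libraries, as had 3.16% of all promoters. The window was also empty in 2 single libraries of each (for Smarca1 the second control TNF and the first knockdown ns replicate, at −3.46 and −3.29), and there the S7P ratios were lower because the flank was fuller (for Smarca1 1.32 and 1.12 times the library mean in S7P, 1.0 and 0.876 in these 2 libraries), not because the window was emptier. Empty S7P windows were found at 7.34% of all promoters.

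Ep400 was the only member whose S7P patterning levels, 14.3 and 8.78, exceeded all 8 single libraries, of which the highest was 6.0, as did 2.85% of all promoters. Its S5P level was 1.70. The difference to control TNF was 11.2 (SE 8.38) with an adjusted p of 0.803. Chd8 had 12.2 and 8.70 in control TNF and −4.23 and −0.705 in S7P, a difference of −12.9 (SE 4.22, adjusted p 0.570), and its log2 NDR ratio was higher by 1.31 (SE 0.54, adjusted p 0.552). Against all 8 single H3K4me1 libraries the Chd8 differences were smaller, −6.66 in patterning level and 0.55 in log2 NDR ratio. The stimulated pooled fibroblast set had a Chd8 patterning level of −0.592. In S5P, Chd8 stood at 3.95 in patterning level. Over the 10 members the median S7P difference was 5.43 in patterning level, with 7 higher and 3 lower, against 0 over all promoters, and −0.95 in log2 NDR ratio, with 4 higher and 6 lower, against 0.09.

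Over the 80 tests of 10 members without the coverage filter (4 comparisons, 2 measures), 8 (10.0%) had an unadjusted p below 0.05, from Chd2, Chd4, Chd7 and Chd8, and none an adjusted p below 0.05. Over all promoters 6.59% of the same tests had an unadjusted p below 0.05. The lowest adjusted p was 0.252.

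Genes whose products work beside these remodellers also gave no calls. Of 58 listed genes (14 of NuRD, 8 partners of ISWI, 30 subunits of the INO80, SRCAP and TIP60 complexes and 6 other SNF2-family enzymes), 57 had a promoter and 31 of their 60 promoters had high coverage. None of 248 tests among high-coverage promoters passed the adjusted threshold, and 22 (8.87%) had an unadjusted p below 0.05, against 6.37% over all high-coverage promoters. Without the filter none of 480 tests passed and 49 (10.2%) had an unadjusted p below 0.05, against 6.59% over all promoters. In non-stimulated pooled fibroblasts the median patterning level was 3.86 for NuRD, 7.59 for ISWI partners, 7.76 for INO80, SRCAP and TIP60 subunits and 7.51 for the other SNF2-family genes. The value for the 10 members in this set, of which fewer had high coverage, was 2.01, and no difference was tested. With square roots of occupancies it was 5.47, which is on another scale and cannot be set beside these family medians.

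Within each family the pooled value spanned a wide range. Rbbp4, a histone chaperone of NuRD, was highest in NuRD at 12.0 and Chd5, a CHD gene of neural tissue, lowest at −4.42. Over the single libraries Rbbp4 averaged 11.6 ± 9.92 and Chd5 −2.26 ± 8.23 (SD, n = 8). Rsf1, the partner of SNF2H in the RSF complex, was highest among ISWI partners at 16.5 (9.46 ± 10.8) and Pole3, a histone-fold subunit of CHRAC, lowest at −10.1 (3.39 ± 5.87). Ing3 of the TIP60 complex was highest at 22.4 (2.13 ± 9.42) and Ruvbl2, an AAA+ ATPase shared by INO80, SRCAP and TIP60, lowest at −22.3 (−7.47 ± 10.5) in their group. Hells at 15.1 (5.31 ± 7.26) and Smarcad1 at −3.26 (0.779 ± 6.95) bounded the other SNF2-family genes. These genes were picked by their pooled values, which are given for description only.

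The companion nearest to a call was Actr6, an actin-related subunit of SRCAP, which is named here because of its value. Its log2 NDR ratio was lower by 2.92 with TNF-α (SE 0.33, adjusted p 0.0915 in limma among high-coverage promoters).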

How the data were processed

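The authors mapped ChIP-MNase reads to mm9 with bowtie, removed excess duplicates, and extended single-end reads. Of the paired-end libraries, fragments between 140 and 180 bp were retained. The deposited occupancy signal is fragment density in 10 bp bins from −1000 to 1000 bp of the TSS, relative to the surrounding 1 kb and smoothed by the authors. The deposited promoter annotation gives a coverage score, a fragment number computed by the authors, and an expression score for each cell-type. The study's methods describe RNA-seq expression in FPKM, but the columns carry no unit, so values are given relative to their mean. The 2 columns holding the authors' log2 induction differences were not used. Promoters were named by RefSeq identifier (24924), by GENCODE start (452, Chd7 among them) or not at all (505).

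Each library was divided by its mean over the 13559 promoters with a coverage score above 100. The template for patterning levels was the mean profile of active high-coverage promoters in the pooled non-stimulated set of the same cell-type (8373 in DCs, 6458 in fibroblasts; the latter also for pol-II), rescaled from 0 to 1 and centred. Inducible promoters were kept in it. Both measures were fitted per promoter with limma 3.58.1 in R 4.3.3 with Benjamini-Hochberg adjustment. TNF-α and knockdown were additive terms over 8 libraries, the interaction was a further fit, and S7P was compared with control TNF over 10 libraries in 5 groups. On simulated data with 200 shifted promoters of 13559, shifts of 4 SD were recovered in 29.5 to 46.5% for TNF-α and knockdown, and in 0% for the interaction and S7P. Shifts of 2 SD were recovered in at most 0.5% in any comparison. The simulation held high-coverage promoters only and does not cover the fit without the filter, on which 8 members depend. Motifs and CpG content were read from mm9 with pysam 0.24.0.

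Same-numbered libraries were not fitted as pairs in the main model. Differences between the 2 replicates of a group were correlated between groups across promoters. The correlations were 0.0004 to 0.0112 for patterning level and −0.0075 to 0.0211 for log2 NDR ratio. A shift common to all promoters of a library does not enter these correlations, so that pairing was not excluded. Replicates of a group correlated at a Spearman rho of 0.264 to 0.379 in patterning level across promoters. Members, companion genes and tests were chosen with earlier results of these data known. All members were described, and companion genes were named as the highest and lowest of each group in the pooled non-stimulated fibroblast set. The values hold no counts, so that the depth behind each is unknown. Promoter sequences are printed for the 2 high-coverage members only.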

Additional observations from a re-analysis of the deposited data

Results flagged for a closer look

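At Bptf the TNF-α response of the log2 NDR ratio ran in opposite directions in the 2 kinds of cell. It was −1.69 in control and 0.4416 in knockdown fibroblasts (stimulated minus non-stimulated, 2 libraries each), and every library of each stimulated group lay on its side of both non-stimulated libraries. The control value rests on 1 library: without the first control ns replicate it was −0.27. The test of the difference, an interaction of 2.13 (SE 1.33), had an adjusted p of 0.886 in limma. Opposite moves of this kind occurred at 5.51% of all promoters. In 6 of the 8 libraries the window held no fragment, and differences between such libraries come from the flank.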

How the results depend on the processing

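The count of promoters with an adjusted p below 0.05 was 0 in all 8 comparisons. For the TNF-α comparison of log2 NDR ratios it was 8 without the coverage filter, 13 with a pseudocount of 0.05 and 6 with the whole promoter as reference, and 0 to 2 when 1 library was left out, with 2 only without the first control TNF replicate. For knockdown it was 1 with a window from −100 to 50 bp, and for S7P 49 without the filter. Without the filter, on which 8 members depend, the S7P count was 0 in 8 of 10 fits that left out 1 library (46 and 43 without the first and second S7P replicate), 113 with a pseudocount of 0.05, 11 with 0.5, 19 with the window from −100 to 50 bp and 28 with the whole promoter as reference. The TNF-α count was then 0 in 7 of 8 such fits (4 without the first control TNF replicate), 20 with a pseudocount of 0.05, 1 with the other window and 11 with the whole promoter. Knockdown gave 6 with the other window, 3 with a pseudocount of 0.05 and 3 without the second control TNF replicate, and the interaction 8 with a pseudocount of 0.05. For patterning level TNF-α gave 3 without the first control TNF replicate and S7P 2 with square roots. With a replicate block it was 0 in all 8 comparisons, with the filter and without it. The pooled non-stimulated fibroblast median patterning level was 5.47 with square roots of occupancies, which give another scale (2.01 as reported). The stimulated fibroblast median log2 NDR ratio was −0.12 with the window from −100 to 50 bp (−1.50 as reported). The cause of either change was not tested. The other 128 alternative values kept their direction and side of the threshold. Over 127 alternatives of 9 member effects, 0 were reversed and 0 passed an adjusted p of 0.05, but sizes moved. With a pseudocount of 0.5 the log2 NDR differences were −1.08 for Chd4 with TNF-α, −0.86 for Chd2 with knockdown and −2.19 for Chd7 in S7P. With the window from −100 to 50 bp Chd4 had −1.37 with TNF-α and Chd8 2.91 in S7P. With square roots of occupancies the patterning differences were −2.74 for the Chd4 interaction, −6.93 for Chd8 in S7P and 7.02 for Chd2 with knockdown. Square roots put these differences on another scale, so that only their direction can be set beside the reported ones. Leaving out 1 library moved the Chd8 S7P difference in log2 NDR ratio between 0.65 and 1.96. With replicate 2 alone the interaction has no residual degrees of freedom and gave no count. Alternatives without the filter for the 8 members below the threshold were chosen after seeing the data.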
